A study of Mus musculus with 9 samples.

Results

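The natriuretic peptide receptors Npr1, Npr2 and Npr3 and the cGMP-dependent protein kinases (protein kinase G) Prkg1 and Prkg2 were followed across 3 adipose depots. These 5 genes were taken by symbol from a deposited table of 22527 gene symbols, and 3 of them, the receptors, passed the filter for testing (at least 1 FPKM in 3 or more libraries). Natriuretic peptides from the heart and the vessel wall act on fat cells through cell-surface receptors. Npr1, which binds the atrial and B-type peptides, and Npr2, which binds the C-type peptide, are membrane guanylyl cyclases that make cGMP, whereas Npr3 has no cyclase domain and takes the peptides up for breakdown, and is therefore called the clearance receptor. In adipocytes cGMP activates protein kinase G, which is known to promote lipolysis and, in brown fat, thermogenic gene expression.

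Ribosome-bound RNA came from brown (BAT), inguinal white (iWAT, subcutaneous) and epididymal white (eWAT, visceral) adipose tissue of C57BL/6 mice aged 8 weeks, with 3 libraries per depot and 9 in all. All groups share strain, age and the genotype given as wild type, and no treatment is named. RNA was obtained by pull-down with an anti-GFP antibody, and the labels do not name the promoter or the cell type that carries the tagged ribosome, while the submitters' name for the table refers to adiponectin, a gene of adipocytes. Neither says how adiponectin was used, and the source cells are taken here only as adipose tissue. The labels do not state whether replicates are separate animals, so the p-values cover only library-to-library spread, which may be technical. Values are FPKM (fragments scaled to transcript length and to library size) and can be set side by side between genes.

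Depth, estimated from single-read steps among low values, was 11.1 to 21.4 M reads in BAT and 16.4 M in eWAT 1, and 2.92 to 4.66 M in the other 5 libraries. The brown marker Ucp1 was between 2434 and 3054 FPKM in the BAT libraries and at most 3.38 FPKM in a white library. BAT 3, whose tissue field names inguinal fat while its title names BAT, was at 3054 FPKM. Of 5 brown markers, 2 were called higher in iWAT than in eWAT and 0 lower, where 0.231% and 1.5% of all tested genes were. These were Cidea (means of 71.7 and 6.75 FPKM in iWAT and eWAT) and Cox8b (289 and 42.7 FPKM). Defining adipocyte genes were abundant in each library but at uneven levels, with Adipoq from 455.5 FPKM (iWAT 2) to 2931.7 FPKM (eWAT 3). Of 6 such genes, 2 were called higher in BAT than in iWAT and 0 lower. In BAT against eWAT 3 were called lower in BAT and 0 higher. Of all tested genes 34.5% were higher in BAT in the former comparison and 13.5% lower in the latter. Markers of endothelium summed to 1.21 to 4.48 FPKM over 7 genes and those of macrophages to 0.474 to 4.82 FPKM over 5 genes, while keratins and epithelial markers gave sums of 18.6 to 38.4 FPKM for BAT, 130 to 359 for iWAT and 51.3 to 176 for eWAT. Skeletal muscle markers gave 59.9 to 149 FPKM for BAT, 1725 to 2460 for iWAT and 227 to 1244 for eWAT. Leaving out iWAT 1 changed several calls, given below for the receptors and the pathway genes named.

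The results turn on the balance between Npr1 and Npr3, and the sequences upstream of both genes are shown for that reason. On build mm9 (GENCODE vM1), the protein-coding gene Npr1 lies on the minus strand of chromosome 3 from 90254513 to 90269788, and Npr3 on the minus strand of chromosome 15 from 11769651 to 11835429. The 250 bases before each start site, from RefSeq on build GRCm38.p6, lie at chr3:90465867-90466116 and chr15:11907372-11907621, both on the minus strand, and capitals mark each match to a motif searched on both strands.
Npr1: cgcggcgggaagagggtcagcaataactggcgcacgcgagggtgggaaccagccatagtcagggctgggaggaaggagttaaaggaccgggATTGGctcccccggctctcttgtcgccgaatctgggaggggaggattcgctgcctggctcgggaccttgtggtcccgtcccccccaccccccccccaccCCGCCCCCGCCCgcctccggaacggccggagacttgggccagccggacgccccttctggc
Npr3: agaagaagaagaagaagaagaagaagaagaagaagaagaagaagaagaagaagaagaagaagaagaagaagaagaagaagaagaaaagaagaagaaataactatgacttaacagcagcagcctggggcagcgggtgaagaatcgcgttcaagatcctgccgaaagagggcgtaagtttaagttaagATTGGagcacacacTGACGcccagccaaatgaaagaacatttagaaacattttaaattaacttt
The Npr1 window was 70.4% G and C and held the GC box (GGGCGG) 2 times, in both cases on the reverse strand and with the copies side by side, and the CCAAT box (CCAAT) 1 time. The Npr3 window was 38.8% G and C, began with a long run of the triplet of A, A and G, and held the CCAAT box 1 time and the half-site of the cAMP response element (TGACG) 1 time. Among 32851 RefSeq windows of this length, 32.7% held the GC box, 33.8% the CCAAT box and 17.8% that half-site. Neither window held the TATA box (TATAAA, in 12.4% of windows), the C/EBP core (TTGCG, 14.5%) or the nuclear receptor half-site (AGGTCA, 14%). These matches describe the letters only.

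Npr1, the cyclase receptor of the atrial and B-type peptides, was highest in BAT. It stood at 5.05, 4.22 and 7.14 FPKM in BAT 1, 2 and 3. In iWAT it was at 1.09 and 0.914 FPKM in libraries 1 and 2 and was listed at 0 in library 3, and in eWAT it was at 0.807, 0.688 and 1.11 FPKM. The lowest BAT library was thus above the highest white library, and the white depots overlapped each other. The mean of 5.47 ± 1.5 FPKM in BAT was 6.30-fold the mean of 0.868 ± 0.217 FPKM in eWAT (SD, n = 3). On the log2(FPKM + 1) scale, which understates changes of low genes, Npr1 was 1.77 higher in BAT than in eWAT (SE 0.30, limma adjusted p = 0.00126). It was 2.0 higher in BAT than in iWAT (SE 0.30, limma adjusted p = 0.00047), and 1.67 higher without iWAT 3, the library with the listed 0 (limma adjusted p = 0.00137). Between the white depots Npr1 differed by -0.23 (95% interval -0.89 to 0.44, iWAT minus eWAT, limma adjusted p = 0.606), an estimate that turned to 0.11 without iWAT 3. In these bulk samples a smaller share of the cells that carry a transcript cannot be told apart from less of it per cell.

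Whether the 0 of iWAT 3 is a failed estimate or an absence was not tested. At the estimated depths and the longest annotated transcript of Npr1 (4066 bases), 1 read would be worth 0.0887 FPKM in iWAT 3, and the values of iWAT 1 and iWAT 2 would correspond to 19.7 and 12.3 reads. The BAT values would correspond to 217 to 427 reads. Exons of Npr1 share 559 bases with Gm16048, an annotated transcript on the opposite strand, and since the strand setting of the counting is not given in the sources used here, reads from that stretch cannot be assigned to either gene. Endothelial cells also express Npr1 as a rule. Their 7 markers gave sums of 2.27 to 3.15 FPKM for BAT, 1.21 to 4.24 for iWAT and 1.80 to 4.48 for eWAT, and the highest single value of Pecam1 in any library was 1.16 FPKM. The part of endothelial cells in the difference of Npr1 was not tested.

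Npr3, the clearance receptor, was ordered the other way, lowest in BAT and highest in eWAT. Its values were 5.62, 3.52 and 7.30 FPKM in BAT 1 to 3, 21.4, 9.77 and 14.2 FPKM in iWAT 1 to 3, and 80.4, 54.6 and 56.9 FPKM in eWAT 1 to 3. The ranges of the 3 depots did not overlap. Group means were 5.48 ± 1.90, 15.1 ± 5.84 and 63.9 ± 14.3 FPKM (SD, n = 3), so that eWAT held 11.7 times the BAT level and 4.23 times the iWAT level, and iWAT 2.76 times the BAT level. The log2 difference was -3.35 for BAT minus eWAT (SE 0.33, limma adjusted p = 4.05e-05) and -1.29 for BAT minus iWAT (SE 0.33, limma adjusted p = 0.00726).

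For iWAT minus eWAT the log2 difference of Npr3 was -2.05 (SE 0.33, limma adjusted p = 0.0147). This call was the least secure of the 3 although its size held. It missed the threshold when these depots were fitted without BAT (adjusted p = 0.067), without iWAT 3 (0.0666), without eWAT 1 (0.0594), without eWAT 3 (0.0593) and without both shallow libraries eWAT 2 and 3 (0.103). That last setting was tried only once the values were known, and it leaves eWAT with 1 library, so that here and below its p takes the spread from BAT and iWAT and assumes that the lone library varies as they do. The call strengthened without iWAT 1 (0.00168). The estimate stayed between -2.40 and -1.79 in all alternatives run.

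**Figure D1:**
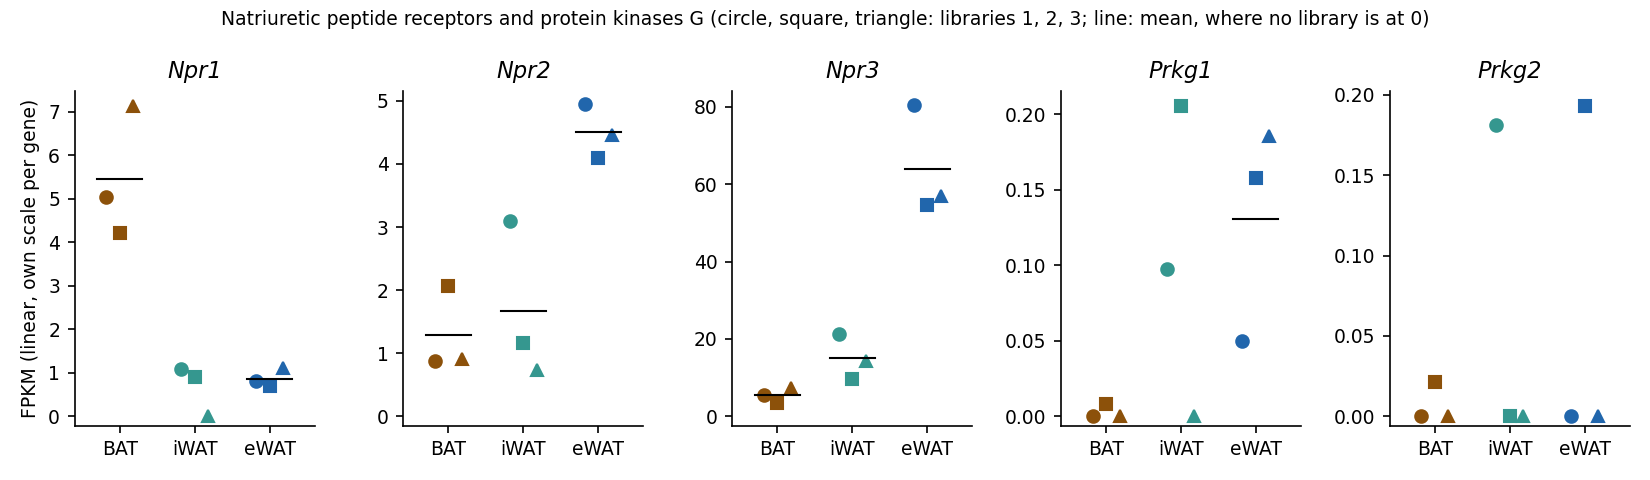
FPKM of the 5 genes in each library (linear axes, a scale of its own for each gene), with circles, squares and triangles for libraries 1, 2 and 3 of BAT, iWAT and eWAT and a line at the mean of groups with no library at 0 (n = 3). The BAT points of Npr1 span 4.22 to 7.14 FPKM and no white point exceeds 1.11 FPKM, Npr3 reaches 80.4 FPKM in eWAT, and both kinases stay at or under 0.206 FPKM.

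Among the 4 libraries with the greatest estimated depth, eWAT 1 held the highest value of Npr3 (80.4 FPKM) and the BAT libraries its lowest values (3.52 to 7.30 FPKM). Between BAT and eWAT 1 alone Npr3 differed by -3.69 log2 units. The part of depth in the level of Npr3 was not tested. Epithelial and skeletal muscle markers were, like Npr3, lowest in BAT. The epithelial sums overlapped between the white depots, and the muscle sums were larger in iWAT than in eWAT. Stromal progenitor markers gave 7.15 to 18.2 FPKM for BAT, 97.3 to 366 for iWAT and 62.8 to 166 for eWAT, a sum carried by Dpt, a matrix protein gene at 75.4 to 339 FPKM in iWAT. The stromal gene Dcn, which encodes the matrix proteoglycan decorin, was ordered as Npr3 was, with 1.71 ± 0.63 FPKM for BAT, 4.03 ± 1.99 for iWAT and 53.8 ± 38.1 for eWAT (SD, n = 3) and its highest value, 97.0 FPKM, in eWAT 1. Dcn differed by -4.14 for BAT minus eWAT (limma adjusted p = 0.000125) and by -3.32 for iWAT minus eWAT (limma adjusted p = 0.00952), but was not called for BAT minus iWAT (-0.82, limma adjusted p = 0.162). The stromal gene Ly6a was ordered differently, with means of 2.69 FPKM for BAT, 18.8 for iWAT and 3.29 for eWAT. Ly6a was called lower in BAT than in iWAT (-2.46, limma adjusted p = 5.83e-05). It was called higher in iWAT than in eWAT (2.20, limma adjusted p = 0.00256), opposite to Npr3 and Dcn. For BAT minus eWAT it was not called (-0.26, limma adjusted p = 0.437). The stromal genes Pdgfra and Cd34 were at most 0.806 and 1.24 FPKM in any library. Markers of vascular smooth muscle and pericytes had their largest sums in eWAT, where Npr3 was also highest, and overlapped between BAT and iWAT. The 8 genes gave sums of 7.44 to 8.76 FPKM for BAT, 7.59 to 14.2 for iWAT and 15.2 to 39.4 for eWAT. Of the 4 that were tested, Acta2, Tagln and Mylk were higher in eWAT than in BAT, while the pericyte proteoglycan Cspg4 was lower there. The smooth muscle myosin Myh11 was at most 0.143 FPKM in any library, and the highest sum was that of eWAT 3. Markers of white adipocytes, summed over 4 genes, were ordered as Npr3 was and without overlap. They gave 97.9 to 256 FPKM for BAT, 1869 to 5657 for iWAT and 6463 to 10214 for eWAT. Mesothelial markers summed to 0.438 to 1.91 FPKM for BAT, 2.17 to 4.02 for iWAT and 2.66 to 4.68 for eWAT. The part of any of these cells in the level of Npr3 was not tested.

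Npr2, the cyclase receptor of the C-type peptide, lies on the plus strand of chromosome 4 from 43644807 to 43664116 (mm9, protein-coding). It was at 0.877, 2.07 and 0.910 FPKM in BAT 1 to 3, at 3.10, 1.16 and 0.731 FPKM in iWAT 1 to 3, and at 4.95, 4.10 and 4.45 FPKM in eWAT 1 to 3. All eWAT libraries lay above all others, and BAT and iWAT overlapped. The sums of vascular smooth muscle and pericyte markers given above were ordered in the same way. The part of these cells in the level of Npr2 was not tested. The eWAT mean of 4.50 ± 0.43 FPKM was 3.5 times the BAT mean of 1.29 ± 0.68 and 2.71 times the iWAT mean of 1.66 ± 1.26 FPKM (SD, n = 3).

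The log2 difference of Npr2 was -1.30 for BAT minus eWAT (SE 0.33, limma adjusted p = 0.0117). That call missed the threshold without BAT 3 (adjusted p = 0.0515) and without eWAT 2 and 3 (0.103). For iWAT minus eWAT the difference was -1.14 (SE 0.33, limma adjusted p = 0.0919), and without iWAT 1, the iWAT library with the most Npr2, it was -1.51 and passed (limma adjusted p = 0.0043). For BAT minus iWAT the difference was -0.16 (95% interval -0.88 to 0.57, limma adjusted p = 0.691), and its sign turned without iWAT 1 (0.20). Exons of Npr2 share 266 bases with Gm12473, a transcript on the opposite strand, so a part of its reads is uncertain in the same way as for Npr1.

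The calls of the 3 tested receptors are to be read against those of all genes. In BAT against iWAT 2 of the 3 receptors were called, where 57.5% of 10374 tested genes were (34.5% higher in BAT and 22.9% higher in iWAT). In BAT against eWAT all 3 were called, where 33.7% of genes were (20.2% higher in BAT and 13.5% higher in eWAT). Between iWAT and eWAT Npr3 was called, where 1.74% of genes were (0.231% higher in iWAT and 1.5% higher in eWAT), a count that rose from 180 to 3321 genes without iWAT 1. The median of all tested genes differed by 0.23 log2 units for BAT minus iWAT and by -0.18 for iWAT minus eWAT. Against those shifts Npr1 was 1.77 and Npr3 -1.52 in the former, and Npr3 -1.87 in the latter. Direction of every called difference of the receptors held under median-ratio scaling and quantile normalization.

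**Figure D2:**
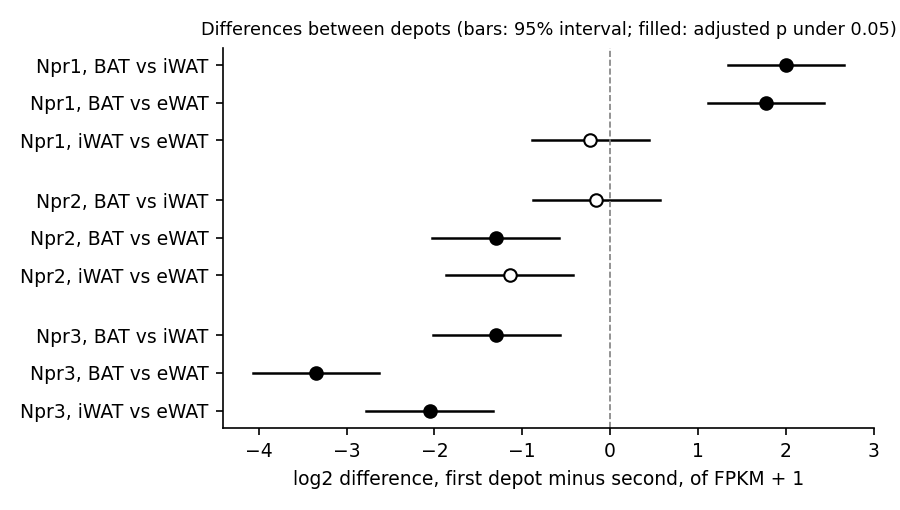
Log2 differences of FPKM + 1 (x axis, first depot minus second) of Npr1, Npr2 and Npr3 in the 3 pairs of depots, with 95% intervals from the limma fit over 9 libraries and filled points for an adjusted p under 0.05. Npr1 lies to the right of 0 in both comparisons with BAT (2.0 and 1.77), and Npr3 lies to the left in all 3 (-1.29, -3.35 and -2.05).

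The opposite orders of Npr1 and Npr3 gave each depot a different receptor mix. In BAT Npr1 supplied 43.7, 43.0 and 46.5% of the summed FPKM of the 3 receptors in libraries 1 to 3, and Npr3 supplied 48.7, 35.8 and 47.6%. In iWAT the share of Npr1 was 4.28, 7.71 and 0% and that of Npr3 83.6, 82.5 and 95.1%, and in eWAT Npr1 had 0.937, 1.16 and 1.78% and Npr3 93.3, 91.9 and 91.1%. The clearance receptor thus made up most of the receptor signal in each white library and under 50% of it in each BAT library. Npr2 took 5.93 to 21.1% in BAT, 4.89 to 12.1% in iWAT and 5.75 to 7.13% in eWAT, ranges that overlapped. The sum of the 3 receptors averaged 12.2 ± 2.83 FPKM for BAT, 17.5 ± 7.18 for iWAT and 69.3 ± 14.6 for eWAT (SD, n = 3).

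Set directly against each other, Npr3 was 1.11, 0.833 and 1.02 times the level of Npr1 in BAT 1 to 3. It was 19.5 and 10.7 times that level in iWAT 1 and 2, with no ratio for iWAT 3, and 99.6, 79.3 and 51.3 times in eWAT 1 to 3. The log2 ratio of Npr1 to Npr3, each with 1 FPKM added so that iWAT 3 has a value, averaged 0.0166 ± 0.17 in BAT, -3.28 ± 0.73 in iWAT and -5.10 ± 0.36 in eWAT (SD, n = 3), and no library of one depot fell within the range of another. It differed by 3.30 for BAT minus iWAT, 5.12 for BAT minus eWAT and 1.82 for iWAT minus eWAT. Each of the 3 differences had an exact two-sided permutation p of 0.1, which is the smallest that 3 against 3 libraries allow (0.1 after Benjamini-Hochberg adjustment over the 3), so this test alone could not reach 0.05. With 0.1 FPKM added in place of 1, the difference between iWAT and eWAT fell to 1.18 (exact permutation p = 0.4), since the listed 0 of Npr1 in iWAT 3 then weighs more.

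**Figure D3:**
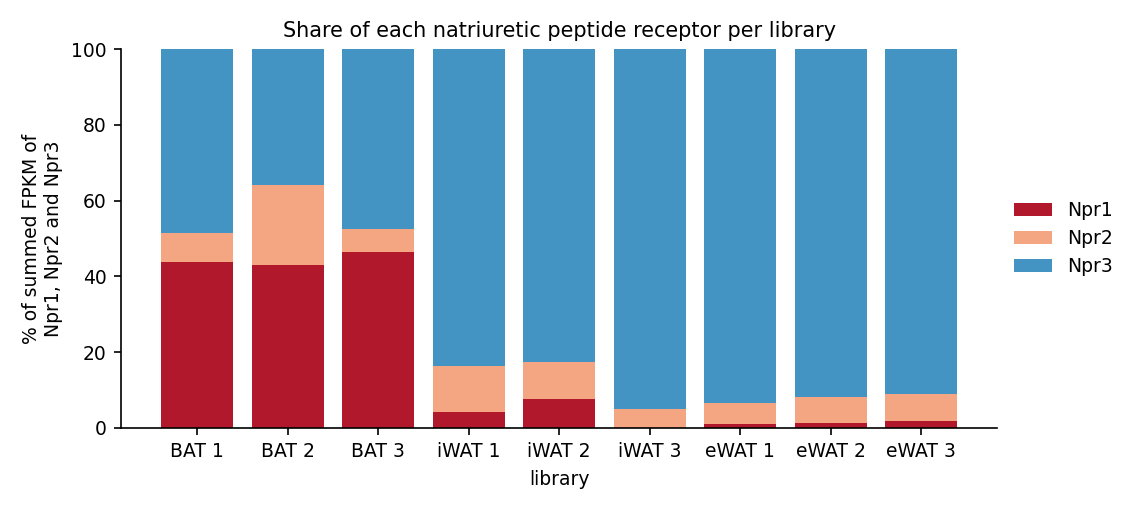
Share (%) of Npr1, Npr2 and Npr3 in their summed FPKM in each of the 9 libraries, as stacked bars. Npr1 fills 43.0 to 46.5% of the bar in BAT and at most 7.71% in a white library, where Npr3 fills 82.5% or more.

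The kinases that read cGMP were near the lower limit of the data in all depots. Prkg1, the soluble kinase that mediates most known cGMP effects in fat and smooth muscle (minus strand of chromosome 19, 30643728 to 31839312, mm9), was listed at 0 in BAT 1 and 3 and at 0.00797 FPKM in BAT 2. It was at 0.0977, 0.206 and 0 FPKM in iWAT 1 to 3 and at 0.0497, 0.158 and 0.186 FPKM in eWAT 1 to 3. Prkg2, the membrane-bound kinase (minus strand of chromosome 5, 99358792 to 99466370), was above 0 in 1 library of each depot, with 0.0216 FPKM for BAT 2, 0.181 for iWAT 1 and 0.193 for eWAT 2. Neither gene reached 1 FPKM in any library, so neither passed the filter, and no mean is given for groups with a listed 0.

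With no filter on low values, Prkg1 differed by -0.13 (BAT minus iWAT, limma adjusted p = 0.255), -0.17 (BAT minus eWAT, 0.185) and -0.04 (iWAT minus eWAT, 0.781) on the log2 scale with 1 FPKM added, which flattens differences this low. Prkg2 differed by -0.07, -0.07 and -0.00484 in the same order (adjusted p = 0.616, 0.618 and 1). A difference between depots was not detectable at these levels. The libraries with Prkg1 listed at 0 were BAT 1, BAT 3 and iWAT 3, of which the first and the second are among the 4 deep ones.

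Other genes of the pathway were counted from a fixed list of 45 genes, all present in the table and 20 past the filter. In BAT against iWAT 9 of these 20 were higher in BAT and 6 lower, where 34.5% and 22.9% of all tested genes were, and the median log2 difference was 0.38 beside 0.23 for all tested genes. Without BAT 2 or without iWAT 3 the lower count fell to 3. In BAT against eWAT 7 were higher and 1 lower, where 20.2% and 13.5% of all tested genes were, with a median of 0.26 beside -0.02. There the higher count fell to 4 without BAT 1 or without BAT 2, and the lower count rose to 5 without eWAT 1, to 4 with quantile normalization and to 3 without iWAT 1. Between iWAT and eWAT limma called 0 of the 20, with 4 at an unadjusted p under 0.05 (median 0.08 beside -0.18), and without iWAT 1 there were 1 higher and 4 lower in iWAT.

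Among ligands, their processing and their breakdown, 3 of 8 genes were tested. The peptide genes themselves were nearly silent: Nppa and Nppb were listed at 0 in all 9 libraries, and Nppc, the C-type peptide, ranged from 0 to 2.84 FPKM, its highest value in iWAT 3. Corin, the protease that matures the atrial peptide, was at most 0.0493 FPKM. Neprilysin, Mme, a membrane peptidase that degrades natriuretic peptides, measured 12.5, 11.2 and 11.3 FPKM in BAT, then 2.02, 1.29 and 2.16 FPKM in iWAT, then 1.05, 1.11 and 2.51 FPKM in eWAT. All BAT libraries were far above all white ones, by 2.18 log2 units over iWAT (SE 0.26, limma adjusted p = 0.000121) and 2.35 over eWAT (SE 0.26, limma adjusted p = 8.76e-05).

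Ide, the insulin-degrading enzyme that also cleaves the atrial peptide, averaged 24.7 ± 7.95 FPKM in BAT, with 9.33 ± 1.32 in iWAT and 10.4 ± 3.44 in eWAT (SD, n = 3), and was called higher in BAT in both comparisons (1.27 and 1.17 log2 units, limma adjusted p = 0.00537 and 0.0134). The call over eWAT ended without BAT 1, BAT 2 or eWAT 3. Furin, a processing protease, was at 16.8 ± 2.82 FPKM in BAT and 9.85 ± 1.54 in eWAT (0.71 log2 units, limma adjusted p = 0.0346), a call lost without any 1 of the BAT or eWAT libraries and with the replicate number as a block. The 3 tested genes of this list were all called higher in BAT than in eWAT, and 2 of 3 in BAT than in iWAT, where 20.2% and 34.5% of all tested genes were. The first count fell from 3 to 1 without BAT 1, without BAT 2 or without eWAT 3.

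Other genes listed for the production of cGMP were mostly under the filter. Of 10 genes for soluble guanylate cyclase, other receptor cyclases and nitric oxide synthases, only the endothelial-type synthase Nos3 passed the filter, with 5.18 ± 2.33 FPKM for BAT, 8.37 ± 2.81 for iWAT and 6.42 ± 2.5 for eWAT (SD, n = 3). It was not called in any comparison in limma (adjusted p = 0.145, 0.549 and 0.502), and with quantile normalization it was called lower in BAT than in iWAT. The soluble cyclase subunits Gucy1a3 (now Gucy1a1) and Gucy1b3 (now Gucy1b1) reached at most 0.547 and 1.05 FPKM. Npr1 in BAT, at 4.22 FPKM or more, was therefore above both soluble cyclase subunits in each BAT library, on the same scale per transcript length.

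Of 11 phosphodiesterases listed for cGMP, 3 passed the filter, and all 3 were called higher in BAT than in iWAT, as were 34.5% of all tested genes. Pde3b, the insulin-activated enzyme of adipocytes that hydrolyses cAMP and is inhibited by cGMP, averaged 42.7 ± 5.05 FPKM in BAT, against 14.4 ± 7.03 for iWAT and 28.5 ± 3.55 for eWAT (1.60 log2 units over iWAT, limma adjusted p = 0.00163, and 0.57 over eWAT, adjusted p = 0.16). Without iWAT 1 Pde3b was called higher in BAT than in eWAT (adjusted p = 0.0281) and lower in iWAT than in eWAT (-1.38, adjusted p = 0.00214), and it was also called over eWAT when these depots were fitted alone (adjusted p = 0.0235). The call of the calcium-dependent Pde1a (10.9 ± 3.18 against 5.99 ± 3.11 FPKM in BAT and iWAT, 0.82 log2 units, limma adjusted p = 0.0465) was lost in most alternatives run, the replicate block and both other scalings among them. Without iWAT 1 Pde1a was called lower in iWAT than in eWAT (-1.15, limma adjusted p = 0.00896). Pde6d, at 16.5 ± 2.30, 7.47 ± 2.02 and 8.39 ± 3.22 FPKM in the order BAT, iWAT, eWAT, was called higher in BAT than in both (1.07 and 0.94 log2 units, limma adjusted p = 0.0105 and 0.03), over eWAT not without any BAT library, eWAT 1 or eWAT 2. It is known as a carrier of prenylated proteins and does not itself hydrolyse cGMP. The cGMP-specific enzymes Pde5a and Pde9a were at most 0.365 and 0.737 FPKM and were not tested.

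Among substrates and partners of protein kinase G, 13 of 16 genes were tested. In BAT 4 were higher and 6 lower than in iWAT, and 3 were higher and 1 lower than in eWAT. Of all tested genes 34.5% were higher and 22.9% lower in the former comparison and 20.2% and 13.5% in the latter, so that the higher counts lay near the background. The 6 lower genes fell to 3 without BAT 2 or without iWAT 3, and the 1 lower gene became 5 without eWAT 1, 4 with quantile normalization and 3 without iWAT 1. Rgs2, a regulator that shortens G-protein signalling, measured 102, 51.0 and 102 FPKM in BAT, against 6.89, 3.17 and 17.8 FPKM in iWAT and 5.14, 4.65 and 17.2 FPKM in eWAT, with no overlap between BAT and white libraries (3.27 and 3.26 log2 units, SE 0.58, limma adjusted p = 0.00128 and 0.00179). Hspb6, a small heat shock protein phosphorylated by cyclic nucleotide kinases, measured 6.04, 4.11 and 5.76 FPKM in BAT, while its highest white value was 1.54 FPKM (1.92 log2 units in both comparisons, limma adjusted p = 0.000608 and 0.0008).

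Vasp encodes an actin regulator whose phosphorylation is used as a readout of protein kinase G activity, and only its RNA was measured here. Vasp RNA went the other way, at 4.07 ± 0.27 FPKM in BAT against 8.02 ± 1.32 in iWAT and 10.0 ± 2.02 in eWAT (SD, n = 3). It was lower in BAT by -0.82 and -1.11 log2 units (limma adjusted p = 0.00983 and 0.00337), and the call against eWAT was lost without eWAT 2 and 3 (adjusted p = 0.0783). The myosin phosphatase subunit Ppp1r12a and the focal adhesion protein Vcl were lower in BAT than in iWAT by -1.73 and -2.11 (limma adjusted p = 0.0049 and 0.00465). Vcl was also called lower in BAT than in eWAT without iWAT 1 (adjusted p = 0.042), without eWAT 1 (0.00791) and with quantile normalization (0.0423), beside 0.0595 with all libraries. Ppp1r12a was called lower in BAT than in eWAT without eWAT 1 (-1.13, adjusted p = 0.0335) and higher in iWAT than in eWAT without iWAT 1 (1.33, adjusted p = 0.0308). In the deep library eWAT 1 their values of 2.85 and 12.1 FPKM lay close to the BAT averages (3.06 and 10.6 FPKM), whereas eWAT 2 and 3 held 9.28 and 6.50 FPKM of Ppp1r12a and 42.1 and 34.9 FPKM of Vcl. Epithelial markers gave sums of 51.3, 176 and 152 FPKM in eWAT 1 to 3, and skeletal muscle markers 227, 1244 and 1049 FPKM. In iWAT 1 to 3 Vcl was at 28.7, 68.0 and 51.6 FPKM. The epithelial sums there were 130, 359 and 261 FPKM and the muscle sums 1760.9, 2460.2 and 1724.5 FPKM. The part of depth and of epithelial or muscle material in these differences was not tested.

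**Figure D4:**
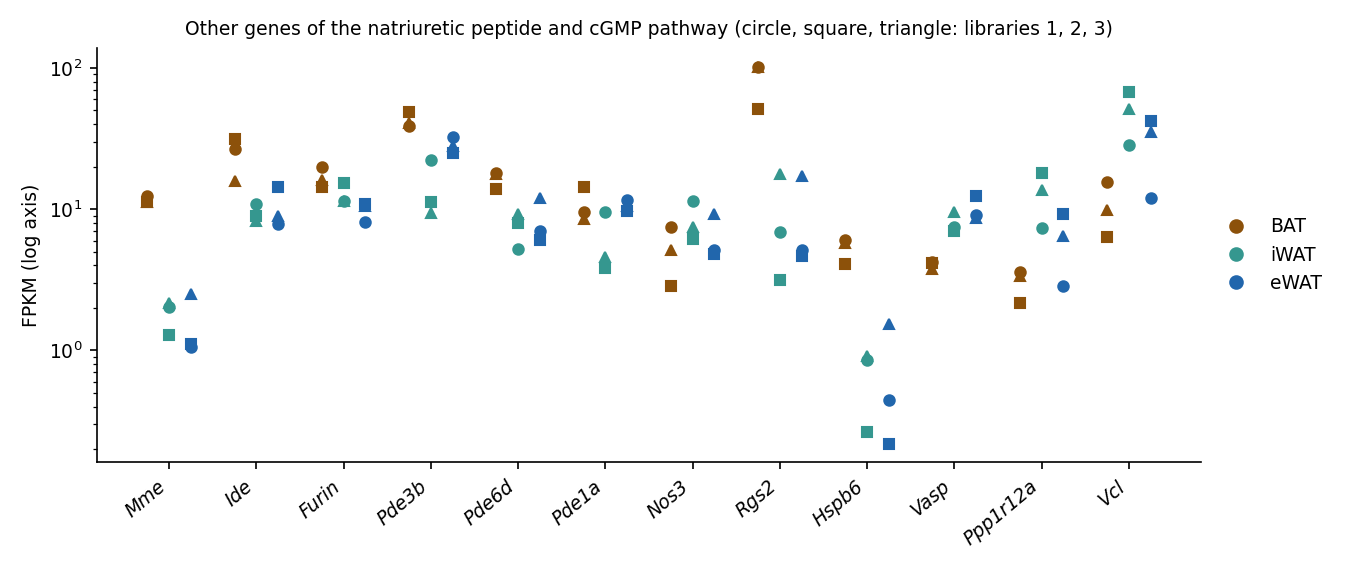
FPKM (log axis) of 12 other genes of the pathway by depot, 1 point per library. Mme, Rgs2 and Hspb6 have all BAT libraries above all white ones (Mme at 11.2 FPKM or more in BAT and 2.51 or less elsewhere), whereas Vasp has all BAT libraries below.

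Genes whose pattern was most like that of each receptor were found by Pearson correlation of log2(FPKM + 1) over the 9 libraries, among about 5930 genes with a mean of at least 5 FPKM. The points share library, depth and depot, and the values are a description. Npr1 was matched most closely by Ssfa2 (r = 0.989, with means of 11.9, 1.71 and 1.79 FPKM in BAT, iWAT and eWAT), the N-terminal acetyltransferase subunit Naa20 (0.987) and the coenzyme Q methyltransferase Coq5 (0.981). Npr3 was matched by the proton pump subunit gene Atp6v0e2 (r = 0.99, at 0.269, 4.71 and 46.1 FPKM), the cell cycle inhibitor Cdkn2b (0.986) and Phyhd1 (0.983). Npr2 was matched by Thnsl2 (0.976), the ADP-ribosyltransferase family gene Art3 (0.972) and the caveolar gene Sdpr (0.971).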

How the data were processed

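Gene values of 9 libraries (3 each of BAT, iWAT and eWAT) were used as the authors deposited them, as FPKM, per the submitters' processing notes made with TopHat and Cufflinks on mouse build mm9. The header names no unit, and versions, annotation, filters and strand setting are not given in the sources used here. Of 22996 lines, repeated symbols were reduced to the line with the highest mean.

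A single limma fit (version 3.58.1, R 4.3.3, trended empirical Bayes) of log2(FPKM + 1) over all 9 libraries covered the 10374 genes that reached 1 FPKM in 3 or more libraries. Benjamini-Hochberg adjustment ran over all of them, with calls at 0.05. The fit was tested on simulated data with independent noise and few changed genes. Many genes were called in the real data, so that test does not show how the fit behaves there. The ratio of Npr1 to Npr3 was compared by exact two-sided permutation in Python 3.11.15. Depth was estimated from 1-read steps of single-transcript genes of 1000 bases or longer (length offset 200 bases). Between 42.8% and 62.5% of the values used lay within 0.15 of a whole read. The lowest share was that of eWAT 1, whose depth is thus the least certain, and the share to be met at random was not computed.

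The genes and lists were chosen with earlier results of these data known. Pathway genes were named when called, up to 4 a list by size of difference, beside a fixed set. Groups follow the titles. The labels state no pairing by number. For deviations from group means, iWAT against eWAT, like-numbered pairs had r = 0.634, 0.534 and 0.165 in number order. Pairs of unlike number ran from -0.576 to 0.228, and the highest, iWAT 2 with eWAT 3, was above the last like-numbered pair. Deviations within a depot cancel out, so these values are not independent and cannot decide whether the numbers pair these depots. Like-numbered pairs with BAT ran from -0.388 to 0.121, with those of numbers 1 and 2 all negative. Alternatives were another pseudocount, other filters and scalings, each pair of depots alone, the replicate number as a block, and each library left out.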

Additional observations from a re-analysis of the deposited data

How the results depend on the processing

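The differences of Npr1 and Npr3 between BAT and either white depot kept their direction and their call in all alternatives run: 1.67 to 3.46 and 1.60 to 2.51 log2 units for Npr1, and -1.55 to -1.03 and -3.69 to -3.11 for Npr3 (BAT minus iWAT, then BAT minus eWAT). Npr1 and Npr2 have a mean under 5 FPKM, so the stricter filter gave no value for them. For Npr3, iWAT minus eWAT, the call was lost with only these depots fitted (-2.05) and without the shallow eWAT libraries (-2.40, chosen after seeing the data), and with 1 library left out the difference ran from -2.32 to -1.79. For Npr2, BAT minus eWAT, it was lost without the shallow eWAT libraries (-1.42), with 1 library left out it ran from -1.54 to -1.18, and with a pseudocount of 0.1 it was -1.83. For Npr2, iWAT minus eWAT, the range with 1 library left out was -1.51 to -0.88, with a call without iWAT 1 alone, and the value with a pseudocount of 0.1 was -1.62. Signs turned for Npr2, BAT minus iWAT (0.20 without iWAT 1, range over all alternatives -0.42 to 0.20), and for Npr1, iWAT minus eWAT (0.11 without iWAT 3, range -0.43 to 0.11 with 1 library left out, and -0.95 with a pseudocount of 0.1), neither called. The cause was not tested. The ratio of Npr1 to Npr3 kept its direction, at 2.97 to 4.90, 4.93 to 6.07 and 1.18 to 2.15 log2 units for BAT minus iWAT, BAT minus eWAT and iWAT minus eWAT.

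With the replicate block, 6080, 3625 and 221 genes were called in BAT against iWAT, BAT against eWAT and iWAT against eWAT, beside 5961, 3492 and 180, and no receptor changed its call (Npr3, iWAT minus eWAT, adjusted p = 0.00706). The filter at a mean of 5 FPKM left 5934 genes, of which 3783, 2244 and 79 were called. In iWAT against eWAT the count was 90 with a pseudocount of 0.1, 93 with no filter, 115 with median-ratio scaling (33 higher and 82 lower in iWAT, beside 24 and 156), 141 with quantile normalization (42 and 99), 28 with only these depots and 44 without the shallow eWAT libraries, and 50 to 3321 with 1 library left out (3321 without iWAT 1, and at most 101 without any other). In BAT against eWAT it was 1427 without the shallow eWAT libraries and 2357 to 4443 with 1 library left out. Prkg1 and Prkg2 were under the filter in all 9 libraries, and what part depth has in this was not tested.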
